A study of Mus musculus with 2 samples.

Results

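Antioxidant enzymes were described in mouse spleen RNA, for 10 genes: the superoxide dismutases Sod1 and Sod2, catalase (Cat), glutathione peroxidase Gpx1, glutathione reductase Gsr, the peroxiredoxins Prdx1, Prdx2, Prdx5 and Prdx6, and thioredoxin Txn1. Their probe sets were found by the gene symbol that the platform's annotation gives each probe set, without use of any measured value. The genes themselves were chosen with earlier results of these data known. Of 12488 probe sets, 12 named a member. Of these, 10 named a single member and covered 7 of the 10 genes, and 2 named Prdx1 together with Gm21399, which RefSeq lists as a pseudogene. No probe set named Prdx5 or Prdx6, and neither was analysed here.

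The RNA was total RNA of spleen, bought from a supplier under 1 catalogue number, and it was hybridised to 2 oligonucleotide arrays, here called array 1 and array 2 by the numbers in their titles. Strain, age, treatment and genotype are not in the labels, which also do not say whether the arrays shared a tube or a labelling reaction. The arrays therefore formed 1 group with no contrast and no p-value, and the spread between them may be technical. The values are signal intensities on a linear scale in arbitrary units, and a pair of them without further words is that of array 1 and array 2. The number of arrays limits the precision.

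Cells make superoxide as a by-product of respiration, and phagocytes make it on purpose to kill microbes. Superoxide dismutases turn superoxide into hydrogen peroxide, which catalase, glutathione peroxidases and peroxiredoxins then turn into water. Glutathione reductase and thioredoxin pass electrons from NADPH to the glutathione peroxidases and peroxiredoxins. The spleen holds red cells, which meet much oxygen, and the macrophages that break old red cells down.

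The labelled tissue was first checked against markers. A gene was called bright when its probe set lay above the 60th percentile of both arrays, a cutoff of 346.32 for array 1 and 342.22 for array 2. Of all 8251 genes with a probe set that names a single gene, 45.2% were bright. All measured markers of red cell precursors (6, among them Alas2 and Klf1), B cells (4, among them Cd79a and Cd79b), T cells (5, among them Cd3e and Cd3d), macrophages (5, among them Csf1r and Adgre1) and neutrophils (6, among them S100a8 and S100a9) were bright. So were all 7 measured markers of acinar cells of the pancreas, which lies beside the spleen, among them Cela1 at 8838.8 and 8920.3 and Ctrb1 at 23276.2 and 25030.4 on arrays 1 and 2. The 7 pancreatic signals summed to 59916.2 on array 1 and 61932.2 on array 2, the largest sum of any marker list. The next largest was that of the 6 neutrophil markers, at 30233.1 and 32479. Such sums also depend on the number of genes and on the probe sequences. Among the other markers Epb42, Cd3d, Adgre1 and Cd68 each had a second probe set no higher than the bacterial controls. Of 4 liver markers 3 were bright, including Alb and Apoa1, and Ttr was not. How much of the antioxidant signal came from each cell type, the pancreas included, was not tested, and in bulk RNA fewer cells of a type and less RNA per cell cannot be told apart.

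Most of the measured antioxidant enzymes gave strong signals. Of the 7 genes with a probe set of their own 6 were bright, against 45.2% of all 8251 genes measured in the same way, and Sod2 was the exception. Their median log2 signal was 10.14, against 8.29 over all genes. Over probe sets, 7 of 10 were bright, against 38.9% of all 10833 that name a single gene. On both arrays 9 of the 10 exceeded every bacterial control, probe sets for targets foreign to mouse, against 67.2% of those 10833. Each gene was represented by its brightest probe set, a choice that gives genes with several probe sets more chances to be called, and this applied to Prdx2 and Cat. Because brightness also depends on the probe sequence, members are not ranked against each other. As the members were chosen with earlier results of these data known, the shares above are descriptions and not tests.

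**Figure D1:**
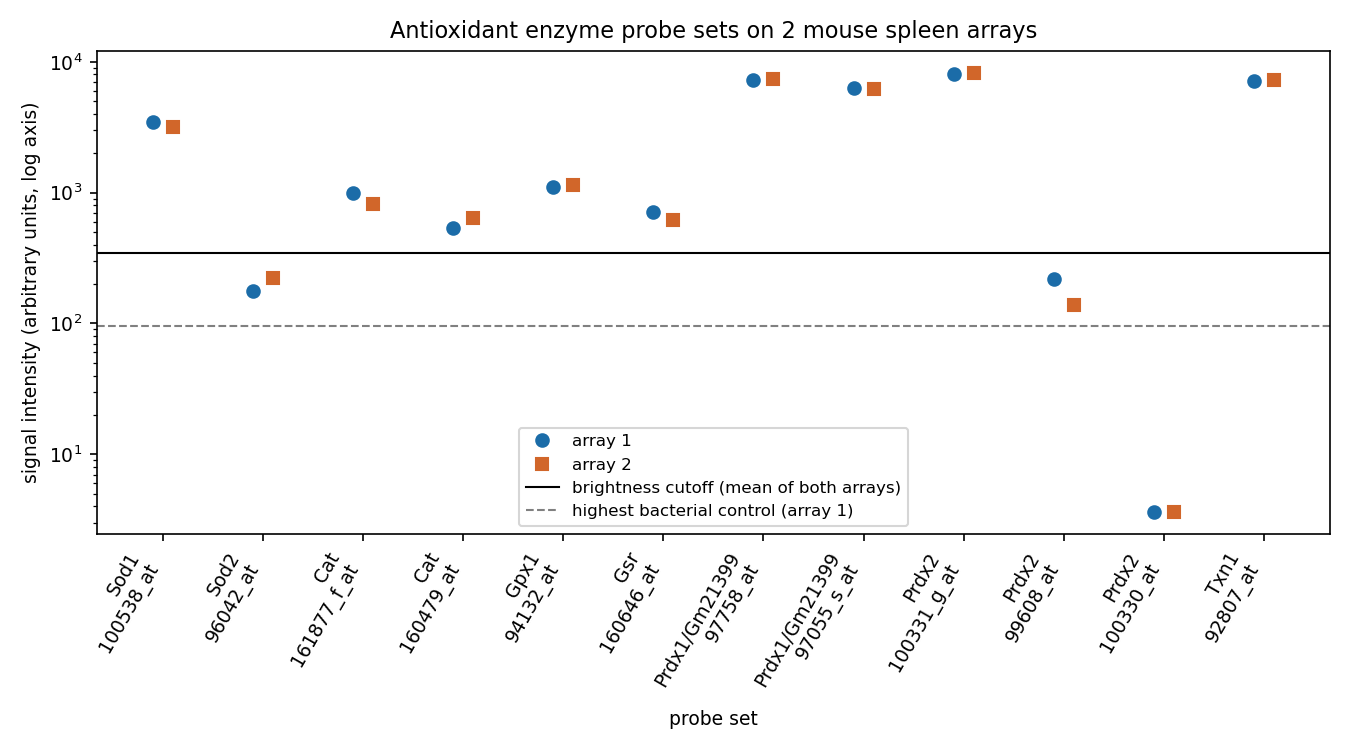
Signal intensity (arbitrary units, log axis) of the 12 probe sets that name an antioxidant enzyme, with circles for array 1 and squares for array 2. The solid line is the brightness cutoff, drawn at the mean of the cutoffs of both arrays, and the dashed line is the highest bacterial control on array 1, at 95. The 3 Prdx2 probe sets lie in 3 different ranges, and Sod2 lies between the lines.

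The 2 superoxide dismutases fell on opposite sides of the cutoff. Sod1, the copper and zinc enzyme of the cytosol, gave 3460.5 on array 1 and 3147.9 on array 2, or 3304 ± 221 (SD, n = 2 arrays here and below). Sod2, the manganese enzyme of mitochondria, gave 176.4 and 223.2, or 199.8 ± 33.1. Both Sod2 values lay below the cutoffs and above the highest of the 15 bacterial controls, which reached 95 on array 1 and 76.2 on array 2. Its only probe set thus exceeded these controls, as did 67.2% of all single-gene probe sets, at a level where the arrays differed more. The controls do not show that the signal was specific to Sod2. Sod2 remained below the cutoff when that was lowered to the 50th percentile, 227.05 on array 1 and 227 on array 2. The value on array 2 missed it by little.

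Both measured genes related to the superoxide dismutases were bright, as were 45.2% of all genes. Sod3, the secreted superoxide dismutase, gave 1020.1 and 888.5. Ccs, the chaperone that hands copper to Sod1, gave 515.3 and 430.4 with its brightest probe set, whose suffix _r_at marks relaxed probe selection. The other 4 Ccs probe sets were not bright, and the one with the suffix _i_at, at 29.1 and 60.4, was no higher than the bacterial controls.

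Catalase, which breaks down hydrogen peroxide in peroxisomes and in red cells, was bright with both of its probe sets. Its probe set with the suffix _f_at gave 989.9 and 817.6, or 904 ± 122. Its probe set without a suffix gave 534.4 and 643.5, or 589 ± 77.1. They differed between the arrays by about the same size in opposite directions, by a log2 difference (array 1 minus array 2, centred) of 0.27 for the first and -0.27 for the second. Catalase therefore showed no shift that both probe sets shared. The mark _f_at denotes a set that can also read related sequences.

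Both measured genes of the glutathione cycle among the members were bright. Gpx1, the selenium-containing peroxidase of the cytosol and mitochondria, gave 1108.7 and 1147.4, or 1128 ± 27.4. Gsr, which regenerates reduced glutathione with NADPH, gave 710 and 617.3, or 664 ± 65.5. Neither had a second probe set. With the cutoff raised to the 75th percentile, 641.1 on array 1 and 633.52 on array 2, Gsr passed on array 1 and not on array 2.

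The wider glutathione system was mixed, with 9 of 14 measured genes bright, against 45.2% of all genes. Gpx4, which reduces lipid peroxides in membranes, gave 899.3 and 772.5. Gpx3, the secreted peroxidase of plasma, gave 3045.8 and 3553.8. Gpx2, the peroxidase known from the gut lining, gave 250.9 and 208, and was not bright. The other 4 that were not bright were glutathione synthetase Gss and the transferases Gsta4, Gstt2 and Gsto1. Gss gave 519.4 and 207.7 on arrays 1 and 2 with the brighter of its 2 probe sets, a log2 difference of 1.32. Probe sets of like signal had a pooled SD of 0.234 on the log2 scale. That SD describes the value of a single array, and differences between arrays spread more widely. Gstt2 gave 308.4 and 394.6 and Gsto1 gave 338.9 and 433.2, so both passed the cutoff on array 2 alone. Gsta4 gave 30.7 and 23.6, no higher than the bacterial controls. The transferase Gstm5 was bright at 2054.8 and 2097.4 with one _f_at probe set, while another _f_at probe set gave 25.5 and 16, so its probe sets disagreed.

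Among the peroxiredoxins, which use a reactive cysteine to reduce peroxides, Prdx2 had 3 probe sets that disagreed. Prdx2 is one of the most abundant proteins of red cells. Its probe set with the suffix _g_at gave 8075.1 and 8245.6, or 8160 ± 121. A second probe set, without a suffix, gave 218.7 and 137.5, or 178 ± 57.4, below the cutoff and above the bacterial controls. A further one without a suffix gave 3.6 on both arrays, below the median of the bacterial controls, which was 20.6 on array 1 and 22.9 on array 2. The mark _g_at denotes a set that recognises a group of similar sequences, so the bright Prdx2 value cannot be assigned to that gene alone. Prdx2 was called bright from that probe set only, and was not bright when probe sets with such suffixes were left out.

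Signals of Prdx1, a cytosolic peroxiredoxin, were high and close between the arrays. One probe set gave 7260.1 and 7347.5, or 7304 ± 61.8, and the other, with the suffix _s_at for several targets, gave 6284.5 and 6215.7, or 6250.1 ± 48.6. Both name Gm21399 as well, so Prdx1 was not counted among the 7 measured genes. With such probe sets admitted, 7 of 8 member genes were bright, against 47.01% of all genes under the same rule.

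Txn1, the cytosolic thioredoxin that reduces peroxiredoxins, gave 7116.2 and 7285.7, or 7201 ± 120. Its single probe set carries no suffix. Of 10 measured genes of the wider thioredoxin system 8 were bright, against 45.2% of all genes. The thioredoxin reductases, which pass electrons from NADPH to thioredoxin, gave 588.8 and 612.5 for Txnrd1 and 403.2 and 418.3 for Txnrd2. Txnrd3, a reductase best known from testis, gave 1066.6 and 872 with one _r_at probe set, and 18.2 and 21.4 with another. The Txnrd3 probe sets thus divided like those of Prdx2. Sulfiredoxin Srxn1, which repairs over-oxidised peroxiredoxins, gave 282.8 and 346.7 and passed the cutoff on array 2 alone. Nucleoredoxin Nxn gave 117.7 and 40.4 and was not bright.

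The other lists around these enzymes were also mostly bright. In all, 41 of 55 measured genes of the 7 related lists were bright, or 74.6%, beside the 45.2% of all genes. The median log2 signal of the 55 was 9.70. These lists too were chosen with earlier results of these data known, so their share is a description and not a test. Among 7 measured genes that supply NADPH 6 were bright. Pgd, of the pentose phosphate pathway, gave 1468.5 and 1120.8, Taldo1 gave 2080.1 and 1992.3, and Tkt gave 2011.8 and 2098.7. Malic enzyme Me1, at 216.6 and 187.5, was not bright.

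Enzymes that make oxidants were bright in 6 of 7 cases, against 45.2% of all genes. Cybb, the catalytic subunit of the phagocyte NADPH oxidase, gave 947.6 and 1119.2. Its partner Cyba gave 5830.7 and 6003.1, and the regulatory subunit Ncf1 gave 579.4 and 584.1. The exception was xanthine dehydrogenase Xdh, at 284.3 and 293.4.

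Nrf2, encoded by Nfe2l2, is the transcription factor that induces many antioxidant genes, and Keap1 marks it for degradation. Of 9 measured genes of this list 6 were bright, against 45.2% of all genes. Among the 6 were Nfe2l2 at 858.2 and 969.7 and its small partner Mafg at 382.3 and 393.7. Keap1 gave 39.1 and 41.6, and the Nrf2 targets Nqo1 and Slc7a11 gave 38.9 and 53.7, and 13.9 and 35.2. These 3 lay within the range of the bacterial controls on both arrays. The other measured targets of the list, Hmox1 and Fth1, were bright, at 6820.8 and 7549.7, and at 12722.6 and 11764.8. Of 6 measured genes of metal binding and repair 4 were bright, against the same 45.2%. Among them the metallothionein Mt1 gave 1037.7 and 1441.5, Mt2 gave 2257.2 and 2358.5, and the methionine sulfoxide reductase Msrb1 gave 996.5 and 1344. Ogg1, which removes oxidised guanine, gave 272.8 and 260.2, and Nudt1, which clears oxidised nucleotides, gave 380.5 and 314.4. Nudt1 passed the cutoff on array 1 alone.

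**Figure D2:**
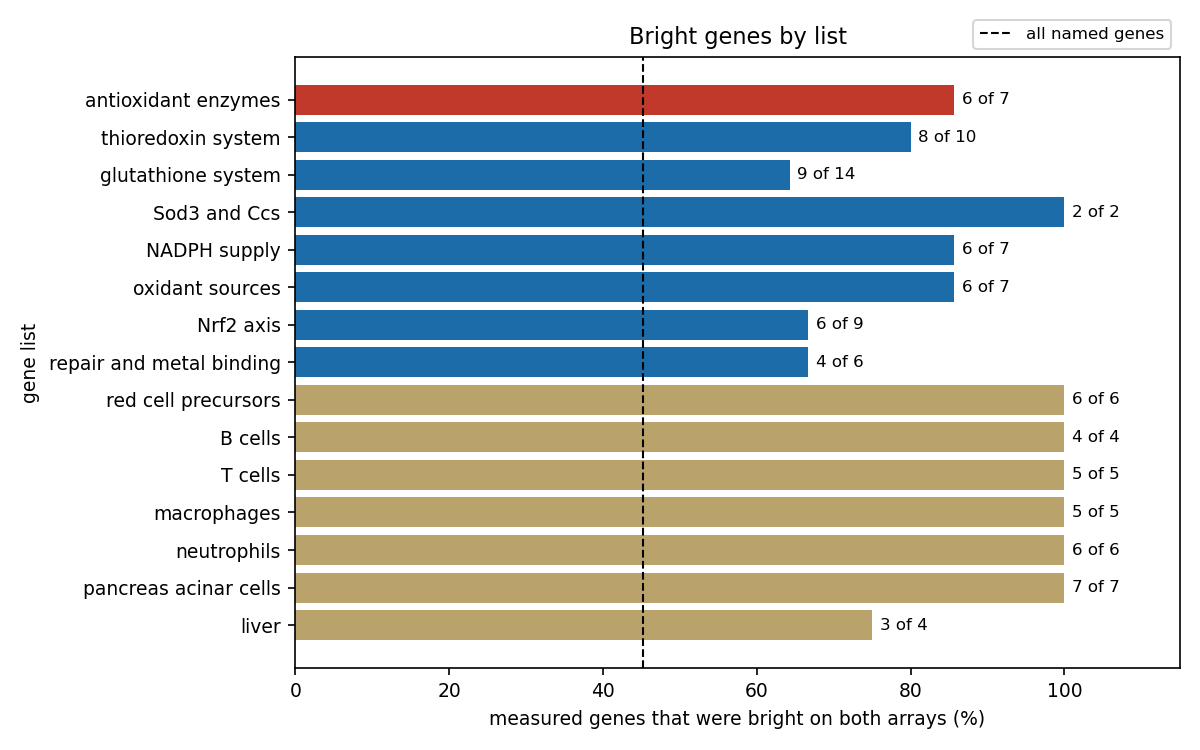
Share of measured genes that were bright on both arrays (percent) for each gene list, with the antioxidant enzymes on top in red, related lists in blue and markers of cell types in tan. The dashed line is the share of all named genes, 45.2%, and the counts stand beside the bars. Every list lies to the right of the line, with the antioxidant enzymes at 6 of 7. The lists were chosen with earlier results of these data known.

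The bright members differed between the arrays about as much as other bright probe sets did. Over the members' 7 probe sets the pooled SD between arrays was 0.123 on the log2 scale. Over all 4219 bright probe sets that name a single gene it was 0.153. All of the 7 but the catalase probe set without a suffix lay in the brightest of 4 signal groups, where the pooled SD was 0.142. How much of the gap to 0.153 goes with signal level was not tested. The members' median log2 difference was -0.03, against 0.00 over the 4219 probe sets (0.0008 before rounding). Of the 7 member probe sets 3 were higher on array 1 and 4 higher on array 2. More than 1.2-fold apart were 2 of the 7, both of catalase, against 18.6% of the bright probe sets. One was higher on array 1, as were 9.46% of the bright probe sets, and one was higher on array 2, as were 9.17%. Among these 7 the smallest gaps were those of Prdx2 (the _g_at probe set), Txn1 and Gpx1, at log2 differences of -0.03, -0.04 and -0.05. The probe sets that name Prdx1 and Gm21399, which are not among the 7, differed by -0.02 and 0.01. Sod1 differed by 0.13 and Gsr by 0.20. Larger gaps were found among 43.95% of all 4708 bright probe sets for Sod1 and among 28.38% for Gsr. For catalase these shares were 16.74% (the _f_at probe set) and 17.37% (the one without a suffix). Within the signal group of each probe set, larger gaps were found for 39.31% (Sod1) and 24.31% (Gsr). For the 2 catalase probe sets, in the same order, they were found for 13.81% and 33.72%.

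Of the 3 member probe sets that were not bright, the dimmest, of Prdx2, was at the floor on both arrays, so its gap carries no information. Sod2 had a log2 difference of -0.34 and the middle Prdx2 probe set one of 0.67. Probe sets in their range of mean signal, the second dimmest of 4 groups of equal size, had a pooled SD of 0.522, against 0.142 in the brightest group. Larger gaps than that of Sod2 were found for 55.97% of probe sets in this range, and larger gaps than that of Prdx2 for 29.11%. Of the 41 bright genes of the related lists 6 were more than 1.2-fold apart, 3 higher on array 1 and 3 higher on array 2, beside the 18.6% of all bright single-gene probe sets (9.46% and 9.17% by direction).

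**Figure D3:**
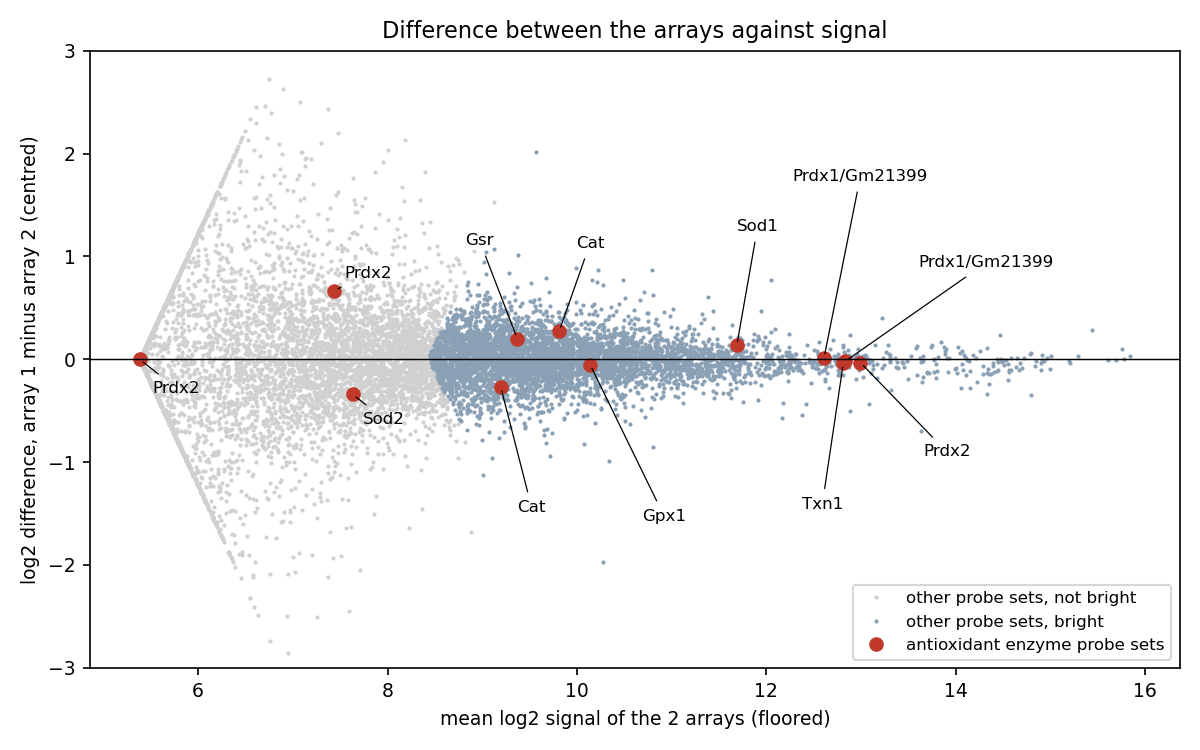
Log2 difference between the arrays (array 1 minus array 2, centred) against mean log2 signal (floored), for the antioxidant enzyme probe sets (red) and all others, bright (blue) or not (grey). Bright members lie within 0.28 of the zero line, whereas Sod2 and the middle Prdx2 probe set lie farther out, where the cloud is wide. The dimmest Prdx2 probe set, at the floor on both arrays, lies at the left end of the zero line. The slanted edges at the left are values at the floor on 1 array.

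Promoters of the members were read from RefSeq sequences of build GRCm38.p6, which held 8 of the 10 genes. The 250 bases before the gene start were searched on both strands for the core of the antioxidant response element, TGACNNNGC, to which Nrf2 binds, and for the GC box GGGCGG, to which Sp1 binds. The element was found in 2 of the 8 members, Sod1 and Prdx1, and in 10.2% of all 32851 promoters. The GC box was found in 6 of the 8 members and in 32.7% of all promoters. It was not found before Gpx1 and Prdx2. The members' median GC content was 62.8%, against 52.4% over all promoters. A match of letters is a description and not a binding site, and the arrays do not measure binding.

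The promoters of Sod1, Prdx1 and Sod2 are shown, 5′ to 3′ on the gene's strand and ending at the base before the start. Sod1 and Prdx1 are those with the element, and Sod2 is the member that was not bright. Capitals mark the element and the GC boxes. The element overlaps no GC box, but the GC boxes of Sod1 overlap in pairs, so that its 4 boxes show as 2 runs of capitals. In Sod1 (chr16:90220512-90220761, + strand) the element lies on the opposite strand 56 to 48 bases before the start, and 4 GC boxes lie farther upstream. In Prdx1 (chr4:116685349-116685598, + strand) it lies on the opposite strand 133 to 125 bases before the start, with 1 GC box closer to the start. Sod2 (chr17:13007589-13007838, + strand) has 4 GC boxes and no element in this window.
Sod1: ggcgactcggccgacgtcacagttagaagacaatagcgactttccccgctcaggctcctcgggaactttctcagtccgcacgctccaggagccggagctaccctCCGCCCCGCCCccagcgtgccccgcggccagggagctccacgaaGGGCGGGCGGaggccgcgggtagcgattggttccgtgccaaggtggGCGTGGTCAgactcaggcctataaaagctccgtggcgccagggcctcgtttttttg
Prdx1: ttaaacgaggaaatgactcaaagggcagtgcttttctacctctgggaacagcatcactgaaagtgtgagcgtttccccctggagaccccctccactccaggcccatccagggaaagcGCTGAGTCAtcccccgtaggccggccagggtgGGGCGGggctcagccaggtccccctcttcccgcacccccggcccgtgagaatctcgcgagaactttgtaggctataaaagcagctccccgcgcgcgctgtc
Sod2: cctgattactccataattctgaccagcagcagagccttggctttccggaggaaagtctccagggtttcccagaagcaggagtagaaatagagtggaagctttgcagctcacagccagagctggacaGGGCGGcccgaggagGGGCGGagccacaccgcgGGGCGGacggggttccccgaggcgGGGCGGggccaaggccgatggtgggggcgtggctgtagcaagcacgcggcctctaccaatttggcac

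Gpx1 had the lowest GC content of the members, at 42%, and Prdx2 the highest, at 69.2%. Txn1 had 4 GC boxes, and Cat and Prdx5 had 1 each. Gpx1 and Prdx2 had neither motif in this window. Whether the motifs relate to the signals on the arrays was not tested.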

How the data were processed

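Per the labels, both samples were purchased mouse spleen total RNA. The deposited table holds 1 signal intensity per probe set and array. Without the lowest and highest 2% of probe sets the mean was 500.265 on array 1 and 500.278 on array 2, which points to a shared scaling by the authors. Which software made the intensities is not stated in the labels. Of 12422 probe sets that are not controls, 10833 name 1 gene in the platform's annotation, 396 several and 1193 none. Identifiers of 10817 were found in RefSeq's gene table (GRCm38.p6), used for names alone.

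Intensities were floored at the 20th percentile of their array (41.8 on both), put on the log2 scale and centred on the median difference of bright probe sets. A pooled SD is the root mean square of the per-probe-set SD of both log2 values, and is smaller than the spread of their difference. Named genes were all members, the first 3 measured genes of each related list and the first 2 of each marker list, the smaller side of a bright split where it was small, and genes whose probe sets disagreed. Hmox1 and Fth1 were named besides, as the other measured Nrf2 targets. Members and lists were chosen with earlier results of these data known. The statistics were tested on simulated data with the same noise on the log2 scale for every probe set. Only bright probe sets were checked there, so the wider spread of dim ones was not covered. Alternatives changed the cutoff, the probe sets, the gene value, the log scale and the normalization. Python 3.11.15, numpy 2.4.6, pandas 2.3.3 and statsmodels 0.14.6 were used.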

Additional observations from a re-analysis of the deposited data

Results flagged for a closer look

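Probe sets that name Prdx1 together with Gm21399 lay outside the counts of single genes and carried signal above the bacterial controls. The one with the suffix _s_at gave 6284.5 on array 1 and 6215.7 on array 2, and the one without a suffix gave 7260.1 and 7347.5. With 2 arrays in 1 group, no check for an array that stands apart and no comparison of groups was possible.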

How the results depend on the processing

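No paired analysis was possible because the series has 1 group. Bright member genes, 6 of 7, ranged from 5 to 7 over 8 alternatives. The share of all genes moved as well. At the 75th percentile 5 of 7 were bright, against 28.5% of all genes. With the highest bacterial control as cutoff 7 of 7 were bright, against 73.9%. With either array alone 6 of 7 were bright, against 47.6%. Prdx2 was not bright with the geometric mean over a gene's probe sets (5 of 7 members, 38.0% of all genes). Nor was it without suffixed probe sets (5 of 7, 43.4%). At the 75th percentile 28 of 55 related genes were bright, against 28.5% of all genes. The number of bright member probe sets more than 1.2-fold apart, 2 of 7, was 1 of 5 at the 75th percentile (12.97% of all bright single-gene probe sets there), 1 of 5 without suffixed probe sets (18.6%) and 1 of 7 with a pseudocount of 16 (17.7%). With the highest bacterial control as cutoff it was 4 of 9 (32.2%), and the pooled SD was 0.207, against 0.233 over all probe sets past that cutoff that name a single gene. Both catalase probe sets lay close to that fold, which a pseudocount is bound to shrink, and the bacterial cutoff admits the dimmer Sod2 and Prdx2 probe sets. All other values of counts, pooled SD and median difference, 53 in number, kept within 1.5 times, or, for the median, within the pooled SD. An array holds no read depth. Sod2 had low signal over the bacterial controls, at which the arrays differed more.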
